A study of Mus musculus with 6 samples.

Results

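The 10 genes described here encode the enzymes that turn arachidonate and other polyunsaturated fatty acids into signals or into oxidisable membrane lipid: the cyclooxygenases Ptgs1 and Ptgs2, the lipoxygenases Alox5, Alox12 and Alox15, the long-chain acyl-CoA synthetases Acsl1, Acsl3, Acsl4 and Acsl6, and the lysophospholipid acyltransferase Lpcat3. They were taken by gene symbol from a table of 36842 mouse genes, and all 10 were found. The labels give the source of the 6 libraries as GC-2spd(ts), a mouse spermatocyte line immortalised with SV40 large T antigen and a temperature-sensitive p53. They give the genotype as WT and the tissue as testis. In the 3 Sal_CP libraries the cells had been given 2 mM cyclophosphamide, an alkylating drug toxic to germ cells, plus 100 µM salidroside, a glycoside from Rhodiola, for 24 h. In the 3 CP libraries they had been given 2 mM cyclophosphamide without salidroside for 24 h. All libraries therefore carry the alkylating drug, and no drug-free library was analysed here. Nothing in the labels shows that libraries of a group came from different cultures; p-values here cover the spread between libraries, which may be technical.

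Arachidonate is held in membrane phospholipid and is released by phospholipases. Cyclooxygenases convert the free acid to prostaglandin H2, and lipoxygenases add oxygen to give leukotrienes and hydroxy acids. Acyl-CoA synthetases activate free fatty acids, and Lpcat3 puts arachidonoyl chains back into phospholipid, where their peroxidation can end in ferroptosis, an iron-dependent cell death. ACSL4 and LPCAT3 are known to promote ferroptosis by loading membranes with such chains, and Ptgs2 is widely used as its transcript marker. The series asks how salidroside acts on the ferroptosis suppressor GPX4, the enzyme that removes the lipid peroxides such chains give rise to.

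The values are FPKM, fragment counts divided by transcript length and library size, so levels can be set beside each other per length. Their sum per library lay between 565944 and 697070, of which mitochondrially encoded genes took 29 to 50.4%. The number of reads behind a value is unknown. Transcripts of late spermatids were the most abundant of the marker lists, with 10 genes summing to 47037 to 77482 FPKM in Sal_CP, against 32611 to 54346 in CP. Of 10 spermatocyte and meiosis genes, the germ cell glycolysis enzymes Ldhc and Pgk2 were by far the most abundant, at 156 to 424 and 564 to 1346 FPKM, while the synaptonemal and recombination genes Sycp1, Sycp2, Sycp3, Dmc1, Spo11 and Hormad1 lay between 0.0345 and 3.75 FPKM. Of 10 epididymal genes, Crisp1 had 1423 to 2123 FPKM in Sal_CP, against 3074 to 3521 in CP, and Defb42 0.512 to 2.75 FPKM in Sal_CP, against 7.46 to 16.7 in CP. Adam7 had 67.2 to 80.9 FPKM in Sal_CP, against 53.7 to 73.5 in CP, and Cst8 24.6 to 63.5, against 18.4 to 38.2. The other 6, Lcn9 at 0 among them, lay between 0 and 1.69 FPKM. The 5 proliferating cell genes Mki67, Top2a, Cdk1, Ccnb1 and Birc5 lay between 0.32 and 3.08 FPKM. Crisp1 and the late spermatid transcripts are not markers of a spermatocyte line, so their levels conflict with the labelled source. In such bulk RNA, fewer cells of a type and less RNA per cell cannot be told apart.

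Acsl1 stood far above the other members. Averaged over the 6 libraries it reached 420.2 FPKM, a level above 99.2% of the 12241 tested genes, those averaging 1 FPKM or more. Ptgs1 (18 FPKM), Acsl4 (17) and Ptgs2 (16.3) followed, then Lpcat3 (8.11), Alox12 (6.95), Alox15 (3.6), Acsl3 (2.38), Alox5 (1.19) and Acsl6 (0.962). Every library of Acsl1 lay above every library of Ptgs1, and for each other pair of neighbours in this order the ranges over the 6 libraries overlapped. Acsl6 was below the filter, which left 9 members tested.

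**Figure D1:**
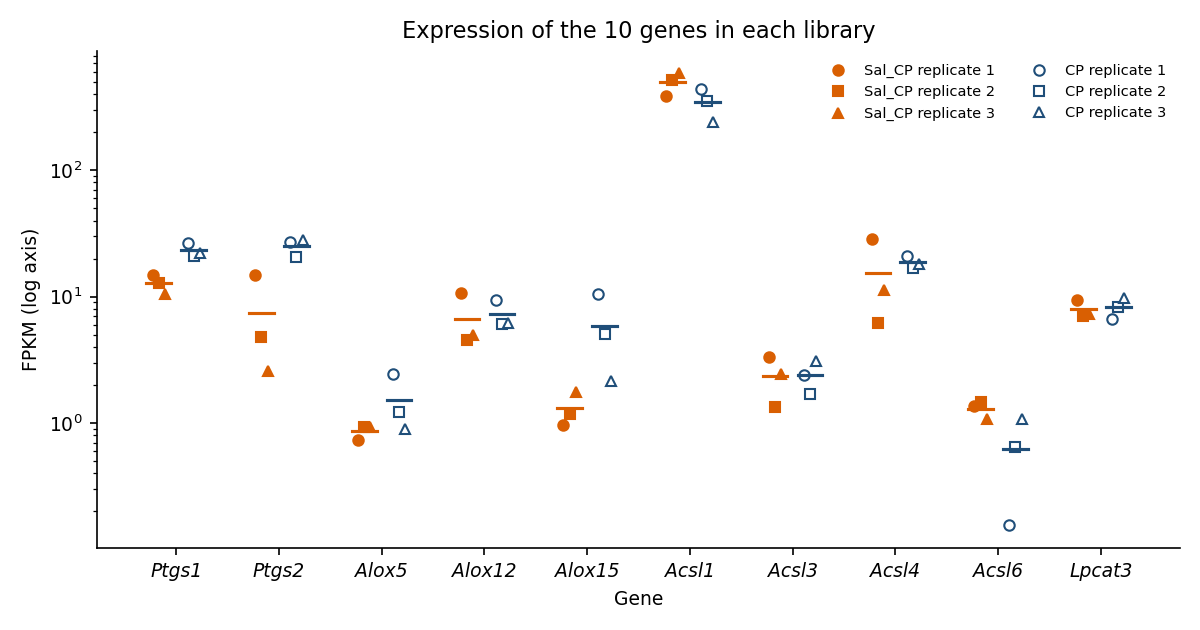
FPKM on a log axis for the 10 genes in each library, with Sal_CP filled and left, CP open and right, and a bar at each group mean (n = 3). Sal_CP points lie below all CP points for Ptgs1, Ptgs2 and Alox15 and above them for Acsl6.

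None of the 9 tested members passed the test over all genes, in which limma with Benjamini-Hochberg adjustment called 9 of the 12241 genes (0.0735%), all lower in Sal_CP. It called 0 genes without Sal_CP replicate 1 and 1 without Sal_CP replicate 2. At an unadjusted p below 0.05, 3 members were lower in Sal_CP, where 6.77% of all tested genes were, and 0 were higher, where 3.96% were. The same 3, Ptgs1, Ptgs2 and Alox15, were those whose groups did not overlap in the lower direction, which held for 10% of all tested genes, and 0 were separate in the higher direction, as 7.21% of all tested genes were. The authors' deposited table called 1 member, Ptgs2 (q = 0.03), where it called 0.605% of the genes above 0 in at least 1 library. The median change of the 9 tested members was -0.39 on the log2(FPKM + 1) scale, beside -0.12 for all tested genes. Median of ratios scaling put the median of all tested genes at 0.02, and Ptgs2 then had -1.75, Alox15 -1.24, Ptgs1 -0.63 and Acsl1 0.75. Changes are Sal_CP minus CP, and this scale understates the change of low genes.

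Ptgs2, the inducible cyclooxygenase, had 14.8, 4.76 and 2.59 FPKM in Sal_CP, against 26.9, 20.7 and 27.9 FPKM in CP. The groups did not overlap, and Sal_CP replicate 1 stood nearest to them. The ratio of the group means, Sal_CP over CP, was 0.294. The log2 change was -1.91 (SE 0.46, 95% interval -2.91 to -0.92), limma adjusted p = 0.213, rank 74 of all tested genes by p. The exact permutation test gave p = 0.1, the smallest that 3 against 3 libraries allow. Without Sal_CP replicate 1 the change was -2.51 (limma adjusted p = 0.0661), and without Sal_CP replicate 3 it was -1.44.

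Ptgs1, the constitutive cyclooxygenase, had 14.8, 12.9 and 10.5 FPKM in Sal_CP, against 26.7, 21.1 and 21.9 FPKM in CP. The libraries of each group lay close together and the groups did not overlap. The ratio of means was 0.549, and the log2 change -0.82 (SE 0.28, 95% interval -1.44 to -0.20, limma adjusted p = 0.421). This change stayed between -0.93 and -0.70 whichever library was left out, the narrowest relative range among the members with non-overlapping groups.

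The share of Ptgs2 in the summed FPKM of the cyclooxygenases does not depend on how libraries are scaled. It was 50, 27 and 19.7% in Sal_CP, against 50.3, 49.6 and 55.9% in CP. Sal_CP replicate 1 thus had the balance of the CP libraries at a lower total, and the other Sal_CP libraries had less Ptgs2 for their Ptgs1. Ptgs1 (ENSMUSG00000047250) spans 36230426 to 36252272 on the plus strand of chromosome 2, and Ptgs2 (ENSMUSG00000032487) 150100031 to 150108227 on the plus strand of chromosome 1, in GRCm38 with GENCODE M21. The protein-coding gene nearest to Ptgs2 is Pla2g4a, the cytosolic phospholipase A2 that releases arachidonate, 138741 bases away.

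The promoters of both cyclooxygenase genes are shown because both had lower values in Sal_CP while Ptgs2 alone is known as an inducible gene. Each sequence holds 250 bases before and 30 bases after the RefSeq start site (GRCm38.p6, plus strand), and capitals mark matches to TTGCGCAA (a palindrome bound by C/EBP factors), TGACG (the core of the cAMP response element) and CACGTG (an E-box) on either strand.
Ptgs2, chr1:150099781-150100060: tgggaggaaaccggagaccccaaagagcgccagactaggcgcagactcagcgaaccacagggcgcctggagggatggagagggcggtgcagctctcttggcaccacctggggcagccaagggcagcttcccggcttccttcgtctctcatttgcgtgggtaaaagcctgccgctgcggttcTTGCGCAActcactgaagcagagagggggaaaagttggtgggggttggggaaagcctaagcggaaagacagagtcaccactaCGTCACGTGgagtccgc
Ptgs1, chr2:36230176-36230455: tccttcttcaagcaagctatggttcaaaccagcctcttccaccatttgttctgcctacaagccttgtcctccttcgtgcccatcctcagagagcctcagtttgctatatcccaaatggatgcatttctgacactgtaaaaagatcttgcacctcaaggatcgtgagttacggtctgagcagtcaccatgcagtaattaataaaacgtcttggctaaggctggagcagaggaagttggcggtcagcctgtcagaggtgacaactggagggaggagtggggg

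In the Ptgs2 window the C/EBP palindrome begins at -69 from the start site, and the cAMP response element core and the E-box overlap each other from 13 bases after it. Among 32851 RefSeq promoter windows of 300 bases, 0.183% held TTGCGCAA, 20.8% TGACG and 7.15% CACGTG on either strand. The search on both strands also covered TATAAA (the TATA box), TGACGTCA (the full cAMP response element, which contains its core), TGANTCA (the AP-1 site), CCAAT (bound by NF-Y), GGGCGG (the GC box) and the NF-κB consensus. Of all 9, a Ptgs1 window held 0 and the Ptgs2 window 4, the fourth being GGGCGG, which 35.7% of windows held. Neither window held the NF-κB consensus, found in 8.46% of windows, and this says only that those letters are not in these bases. RefSeq windows were matched for 9 of the 10 members.

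Epithelial markers moved with the cyclooxygenases. Of 8 genes of epithelial junctions and keratins, all but Cldn3, or 7, were lower in each Sal_CP library than in any CP library. This held for 10% of all tested genes. Of the 8, 0 passed limma over all genes. That list averaged 5.03, 4.68 and 4.26 on the log2(FPKM + 1) scale in Sal_CP, against 5.67, 5.49 and 5.90 in CP, and its summed level 543 to 688 FPKM in Sal_CP, against 599 to 800.0 in CP, with 0 of the 8 at 0. Cldn3 was the largest part of that summed level, at 403 to 551 FPKM in Sal_CP, against 244 to 486 FPKM in CP. The order of the Sal_CP libraries was the same for this list's mean, Ptgs1 and Ptgs2. The summed level was instead highest in Sal_CP replicate 2. The list's part in the difference was not tested.

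**Figure D2:**
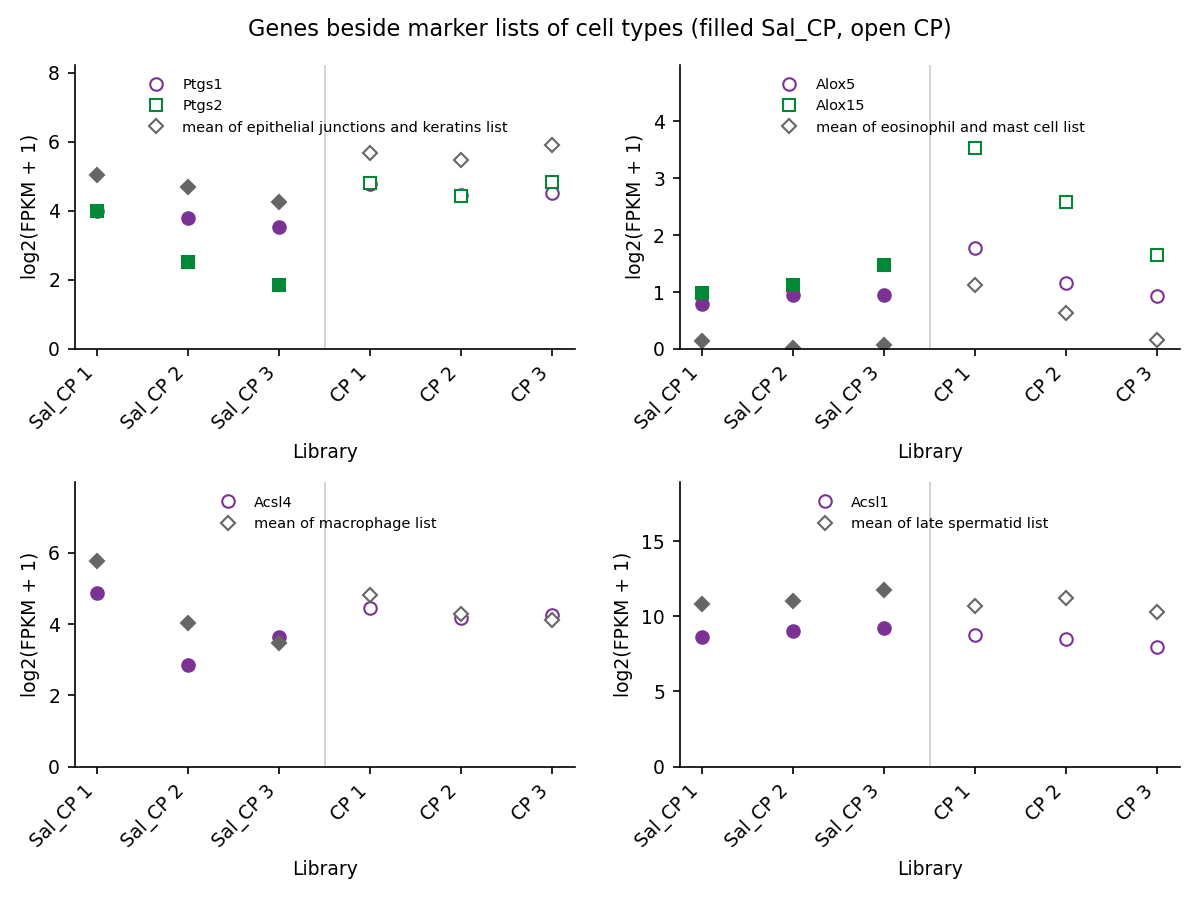
log2(FPKM + 1) of 6 members in each library beside the mean of a marker list, with Sal_CP filled and CP open. Ptgs1 and Ptgs2 lie with the epithelial list, at 5.03 or less in Sal_CP and 5.49 or more in CP for the list. Alox15 follows the order of the eosinophil and mast cell list within CP, which is also that of the macrophage list.

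Alox15, the mouse 12/15-lipoxygenase that can oxidise fatty acids within membranes, had 0.97, 1.18 and 1.77 FPKM in Sal_CP, against 10.5, 5.02 and 2.15 FPKM in CP. The groups did not overlap, but the highest Sal_CP and lowest CP libraries lay close together, and the CP libraries differed widely. The ratio of means was 0.222, the lowest of the 10 members. The log2 change was -1.40 (SE 0.39, 95% interval -2.26 to -0.54, limma adjusted p = 0.322, exact permutation p = 0.1). It was -0.93 without CP replicate 1 and -1.86 without CP replicate 3.

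Alox5, which starts leukotriene synthesis, had 0.734, 0.924 and 0.931 FPKM in Sal_CP, against 2.42, 1.23 and 0.9 FPKM in CP, so the groups overlapped through CP replicate 3. Its log2 change was -0.39 (95% interval -0.95 to 0.17, limma adjusted p = 0.521). Without CP replicate 1, its highest library, Alox5 no longer passed the filter. Alox12, the platelet-type 12-lipoxygenase, had 10.6, 4.51 and 4.93 FPKM in Sal_CP, against 9.41, 6.09 and 6.15 FPKM in CP, with replicate 1 highest in either group. Its log2 change was -0.16 (95% interval -0.88 to 0.57, limma adjusted p = 0.802), and the sign turned when Sal_CP replicate 2 or CP replicate 1 was left out and after median of ratios scaling (0.0065).

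Within the summed FPKM of these 3 lipoxygenases, Alox15 took 7.87, 17.8 and 23.2% in Sal_CP, against 47, 40.7 and 23.4% in CP. The groups did not overlap, although the nearest libraries were almost equal. Alox12 took most of the sum in every Sal_CP library, at 64.6% or more, against 42.2 to 66.9% in CP. Alox12 (ENSMUSG00000000320, 70241457 to 70255353) and Alox15 (ENSMUSG00000018924, 70344152 to 70352031) lie on the minus strand of chromosome 11 in one lipoxygenase cluster, and Alox5 (ENSMUSG00000025701, 116410077 to 116461178) on the minus strand of chromosome 6.

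Mast cell transcripts followed the order of Alox15 and Alox5 within CP. So did the summed macrophage level, at 589, 410.5 and 286 FPKM, and the summed platelet level, at 15, 10.7 and 6.92 FPKM. The eosinophil genes Prg2 and Siglecf did not, and were highest in CP replicate 2. Within Sal_CP the order was not shared, as Alox15 and Alox5 rose from replicate 1 to replicate 3. There the summed macrophage level was 1170, 318 and 187 FPKM, and the summed platelet level 13.6, 4.48 and 4.03 FPKM. The eosinophil and mast cell sum was 1, 0.0866 and 0.437 FPKM in these libraries. Cma1, the mast cell chymase, had 0, 0 and 0.0556 FPKM in Sal_CP, against 5.44, 1.99 and 0.188 in CP, and Mcpt4, another mast cell protease, was listed at 0 in every Sal_CP library and had 2.23, 1.80 and 0 FPKM in CP. Over 9 eosinophil and mast cell genes, of which 1 was tested, 4 had all Sal_CP libraries below all CP libraries, as 10% of all tested genes did. The summed level of the 9 was 0.0866 to 1 FPKM in Sal_CP, against 1.06 to 14.8 FPKM in CP. Of 10 neutrophil genes, of which 4 were tested, 3 were lower without overlap (S100a8, S100a9 and Ltf). The summed level of the 10 was 53.9 to 81.9 FPKM in Sal_CP, against 123 to 146 FPKM in CP. Most of that sum was Ltf, which epithelia also make, while Elane was at 0 and Mpo at 0.565 FPKM or less. Epx, an eosinophil peroxidase, stayed at or below 0.0575 FPKM. Of 8 platelet genes, Pf4 had 2.2 to 11.3 FPKM in Sal_CP, against 4.22 to 11.5 in CP, while Gp5, Gp6 and Gp9 were at or near 0. The part of these cells in the lipoxygenase values was not tested.

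**Figure D3:**
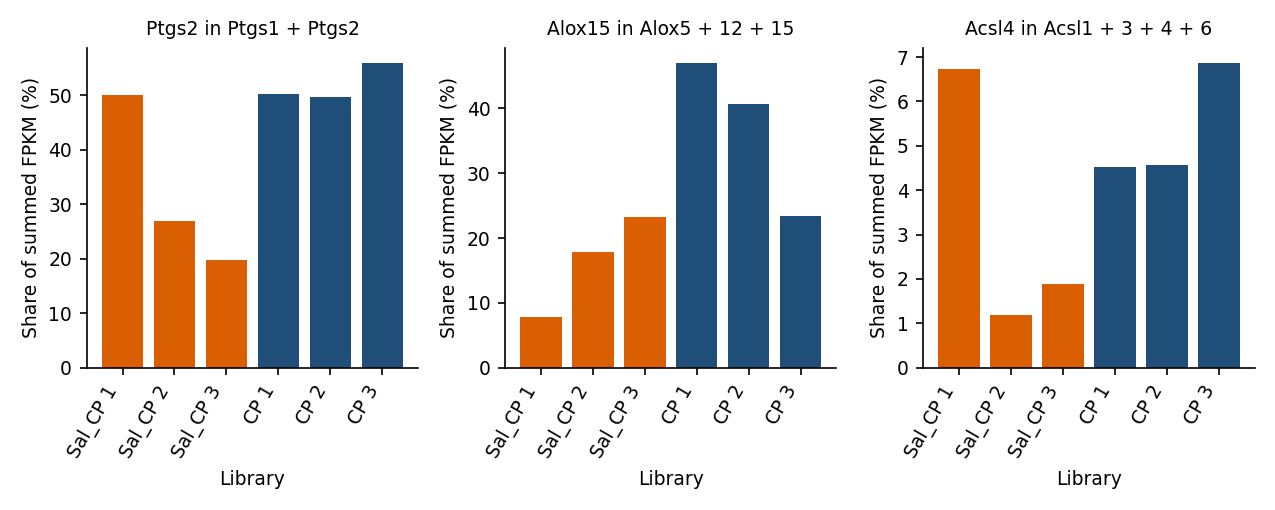
Share of Ptgs2 in the cyclooxygenases, of Alox15 in 3 lipoxygenases and of Acsl4 in 4 acyl-CoA synthetases, as % of summed FPKM per library (Sal_CP orange, CP blue). Sal_CP replicate 1 has a Ptgs2 share of 50% and an Acsl4 share of 6.74%, near the CP libraries, and the lowest Alox15 share, 7.87%.

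Acsl4, the synthetase that prefers arachidonate and sets sensitivity to ferroptosis, had 28.5, 6.19 and 11.3 FPKM in Sal_CP, against 20.9, 17 and 18.2 FPKM in CP. Sal_CP replicate 1 was above every CP library and the other Sal_CP libraries below, so the groups overlapped. The log2 change was -0.51 (SE 0.44, 95% interval -1.47 to 0.45, limma adjusted p = 0.577, exact permutation p = 0.5). It was -1.06 without Sal_CP replicate 1 (limma adjusted p = 0.0713) and -0.04 without Sal_CP replicate 2. The SD of Acsl4 over Sal_CP libraries was 11.7 FPKM, against 2 FPKM over CP libraries (n = 3 each).

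Summed macrophage markers were highest in the same library as Acsl4, and so was each gene of that list but Cx3cr1. The summed level of 10 such genes, none of them at 0, was 1170 FPKM in Sal_CP replicate 1, 318 and 187 FPKM in the other Sal_CP libraries, and 589, 410.5 and 286 FPKM in CP. Acsl4 was lowest in Sal_CP replicate 2 (6.19 FPKM), while that sum was lowest in Sal_CP replicate 3. Cd68 had 133 FPKM in Sal_CP replicate 1 and at most 36.1 FPKM in any other library. Groups overlapped for all 10 genes of that list, and its part in the Acsl4 and Ptgs2 values of that library was not tested.

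Acsl1, the main synthetase of fat, liver and heart, had 389.6, 515 and 585 FPKM in Sal_CP, against 439, 351 and 242 FPKM in CP. The groups overlapped at Sal_CP replicate 1 and CP replicate 1. The ratio of means was 1.44 and the log2 change 0.55 (SE 0.35, 95% interval -0.22 to 1.32, limma adjusted p = 0.514). It was 0.32 without CP replicate 3 and 0.75 without CP replicate 1. Acsl1 took 92.2 to 98.3% of the summed FPKM of the 4 Acsl genes in Sal_CP and 91.6 to 94.9% in CP. Acsl1 (ENSMUSG00000018796) spans 46471037 to 46536051 on the plus strand of chromosome 8. Gm45244, a transcript on the opposite strand annotated as to be verified by experiment, shares part of its exons and had 191 FPKM in Sal_CP replicate 3, the library where Acsl1 was highest, and at most 0.237 FPKM in the others. It is not stated whether counting used strand, so reads of this pair cannot be told apart. The late spermatid list, lowest in CP replicate 3 as Acsl1 was, had a mean log2(FPKM + 1) of 10.84, 11 and 11.71 in Sal_CP, against 10.68, 11.21 and 10.28 in CP, and its part in the Acsl1 values was not tested.

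Acsl6, a synthetase of brain and male germ cells that favours docosahexaenoate, had 1.36, 1.46 and 1.08 FPKM in Sal_CP, against 0.155, 0.646 and 1.07 FPKM in CP. The groups did not overlap, by a margin smaller than 0.01 FPKM between the nearest libraries. The difference of mean log2(FPKM + 1) was 0.54, and the exact permutation test gave p = 0.1. Without CP replicate 1 the difference was 0.31. Fitted with no filter on low values, limma gave an adjusted p of 0.682. All of the 10 spermatocyte and meiosis genes but Dmc1 had higher means in Sal_CP. Of these 10, 5 had all Sal_CP libraries above all CP libraries, as 7.21% of all tested genes did, and 5 were tested. The summed level, most of it Pgk2 and Ldhc, overlapped, at 1207 to 1783 FPKM in Sal_CP, against 797 to 1234 FPKM in CP. All 10 late spermatid genes had higher means in Sal_CP as well, though 0 had all Sal_CP libraries above all CP libraries. Over all tested genes, 60.5% had a log2 change below 0. The part of either list in the Acsl6 values was not tested. Acsl6 took at most 0.406% of the summed Acsl FPKM in any library.

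Acsl3, an enzyme of the endoplasmic reticulum and lipid droplets that handles monounsaturated fatty acids, had 3.31, 1.34 and 2.44 FPKM in Sal_CP, against 2.39, 1.71 and 3.07 FPKM in CP. The values were interleaved, and the log2 change was -0.04 (95% interval -0.65 to 0.58, limma adjusted p = 0.951). Lpcat3 had 9.46, 7.08 and 7.33 FPKM in Sal_CP, against 6.67, 8.34 and 9.78 FPKM in CP, again interleaved. Its log2 change was -0.04 (95% interval -0.64 to 0.55, limma adjusted p = 0.936). The intervals leave room for a change of about 0.6 in either direction, and the sign of both genes turned with single libraries and with the scaling. For the ferroptosis-promoting pair Acsl4 and Lpcat3 the difference between the groups did not exceed the spread over all 6 libraries. For Acsl4 this depended on Sal_CP replicate 1, without which the change was -1.06 (SE 0.28, unadjusted p = 0.00827 in limma). Low p-values were common in that fit, with 4472 of 12067 genes below 0.05 unadjusted, against 1314 of 12241 in the main fit. Its median change was -0.30, against -0.12, and 0 genes passed adjustment. That p therefore does not set Acsl4 apart from other genes.

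Acsl3 (ENSMUSG00000032883) spans 78657825 to 78707743 on the plus strand of chromosome 1, and Utp14b, which overlaps it on the same strand at 0.396 to 0.925 FPKM, leaves its low values uncertain. Acsl4 (ENSMUSG00000031278) spans 142317993 to 142390535 on the minus strand of chromosome X. Acsl6 (ENSMUSG00000020333) spans 54303798 to 54364756 on the plus strand of chromosome 11, and Lpcat3 (ENSMUSG00000004270) 124663027 to 124704418 on the plus strand of chromosome 6. Emg1 overlaps Lpcat3 on the other strand, at 1.04 to 2.29 FPKM.

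**Figure D4:**
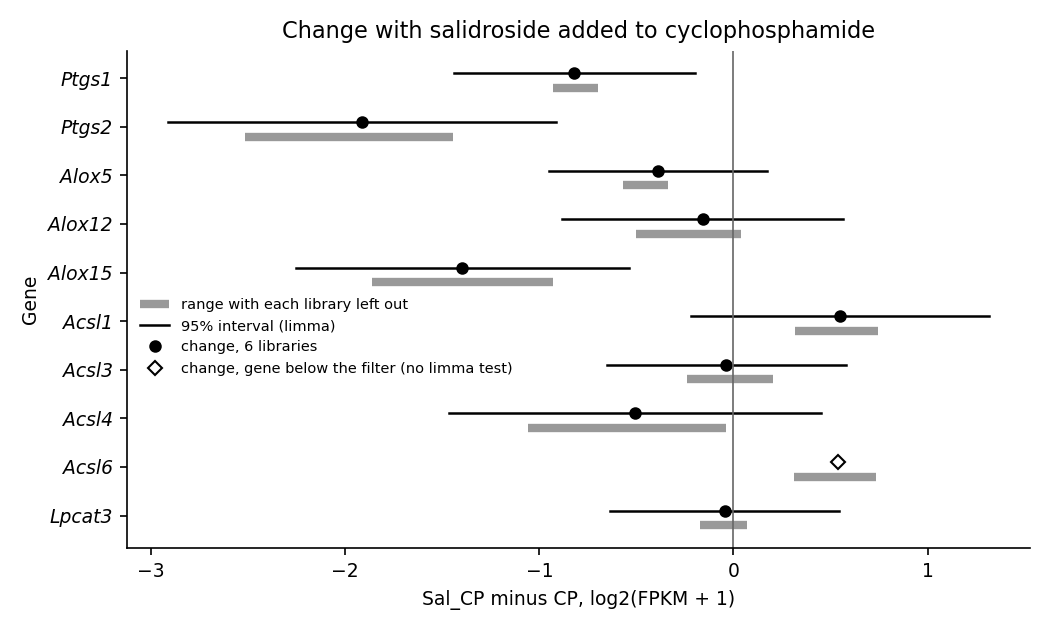
Change on the log2(FPKM + 1) scale (Sal_CP minus CP) of each gene, with limma's 95% interval and, in grey, the range when each library is left out in turn (for Alox5 without CP replicate 1 it was below the filter); Acsl6, below the filter, has no interval. The intervals of Ptgs1, Ptgs2 and Alox15 lie below 0 and those of the other 6 tested genes cross it.

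The genes around the cyclooxygenases were read from lists of pathway genes. Among prostanoid synthesis, transport and breakdown genes, 17 were in the table and 13 were tested. Akr1b7, an aldo-keto reductase able to make prostaglandin F2α in mice, fell and was the only one of them past the test over all genes. It had 18.7, 17.9 and 27.3 FPKM in Sal_CP, against 323, 219 and 124 FPKM in CP, without overlap. Its log2 change was -3.24 (SE 0.39, limma adjusted p = 0.0152). It no longer passed when Sal_CP replicate 1 (adjusted p = 0.0661 in limma) or Sal_CP replicate 2 (0.0551) was left out, after median of ratios scaling (0.170) and with no filter (0.537), with changes of -3.17, -3.14, -3.05 and -3.24.

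A further 5 genes of this list had all Sal_CP libraries below all CP libraries, as 10% of all tested genes did. These 5 did not pass limma over all genes. The authors' deposited table called Ptgr1 (q = 0.000534) and Slco2a1 (q = 0.000112) of these 5 significant, and Akr1b7 too. They were singled out after their values were seen. Ptges, the inducible prostaglandin E synthase that works with Ptgs2, had 14.7, 13.7 and 10.3 FPKM in Sal_CP, against 30.8, 26.3 and 22.9 FPKM in CP (limma adjusted p = 0.338). Ptgis, the prostacyclin synthase, averaged 3.85 ± 0.746 FPKM in Sal_CP, against 9.62 ± 2.92 FPKM in CP (SD, n = 3 each). The breakdown enzyme Hpgd averaged 21.6 ± 10.3 FPKM in Sal_CP, against 47.7 ± 8.57 FPKM in CP, and Ptgr1, which reduces prostaglandin and leukotriene intermediates, 3.03 ± 1.33 FPKM in Sal_CP, against 10 ± 1.93 FPKM in CP. The prostaglandin uptake carrier Slco2a1 averaged 1.27 ± 0.27 FPKM in Sal_CP, against 4.54 ± 1.14 FPKM in CP (limma adjusted p = 0.117). Enzymes that make and that remove prostaglandins were thus both among the genes with lower values. The list's median change was -0.49, beside -0.12 over all tested genes, and epithelial markers moved with it as given for Ptgs2. So did the summed epididymal level, nearly all of it Crisp1, at 1562 to 2238 FPKM in Sal_CP, against 3206 to 3613 FPKM in CP. Of the 10 epididymal genes, of which 4 were tested, 4 had a lower mean in Sal_CP and 2 were lower without overlap. Among all tested genes 60.5% had a change below 0 and 10% were lower without overlap. Adam7 and Cst8 had higher means in Sal_CP. From that list 1 gene, Defb42, passed limma. The part of either list in these values was not tested.

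The other tested prostanoid genes had overlapping groups. Ptgds, the lipocalin-type prostaglandin D synthase, had 159, 139 and 180 FPKM in Sal_CP, against 129, 190 and 174 FPKM in CP, the highest mean level of the list but for Akr1b7 in CP, with a log2 change of -0.03 (limma adjusted p = 0.962). Hpgds, the haematopoietic form, had 4.96 FPKM in Sal_CP replicate 1 and at most 0.647 FPKM elsewhere. Of 9 prostanoid receptor genes, 0 reached a mean of 1 FPKM over the 6 libraries. Ptger3 had 0.404 to 0.716 FPKM in Sal_CP, against 1.03 to 1.61 FPKM in CP, without overlap, and the highest single value was 2.31 FPKM, for Ptger4 in Sal_CP replicate 1.

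Upstream of the oxygenases, 7 of the 19 phospholipase genes in the table were tested and 0 passed over all genes (2 at an unadjusted p below 0.05, both lower). Pla2g4a had 2.56, 1.74 and 1.32 FPKM in Sal_CP, against 4.02, 3.57 and 3.37 FPKM in CP, without overlap, and a log2 change of -0.72 (limma adjusted p = 0.421). Plaat3, a phospholipase of adipose tissue, averaged 0.811 ± 0.469 FPKM in Sal_CP, against 1.6 ± 0.288 FPKM in CP. Pla2g6, the calcium-independent phospholipase A2, was the one tested gene of the list with higher values without overlap. It had 8.20, 8.77 and 9.10 FPKM in Sal_CP, against 3.61, 6.08 and 6.80 FPKM in CP. Its log2 change was 0.61 (limma adjusted p = 0.464, unadjusted p = 0.0502). The list's median was -0.15, close to that of all tested genes.

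In the leukotriene arm, 7 of 19 genes were tested and 0 passed (1 at an unadjusted p below 0.05, Ggt1). Alox5ap, the membrane protein that presents arachidonate to 5-lipoxygenase, had 11.7, 7.07 and 4.5 FPKM in Sal_CP, against 17.1, 8.72 and 3.87 FPKM in CP, in the same order as Alox5 within CP. Ggt1, which removes the glutamyl residue from leukotriene C4, averaged 0.56 ± 0.332 FPKM in Sal_CP, against 1.65 ± 0.35 FPKM in CP (limma adjusted p = 0.366). Fpr2, a receptor for lipoxin A4, averaged 0.433 ± 0.203 FPKM in Sal_CP, against 2.18 ± 1.8 FPKM in CP, and its groups overlapped. The skin and minor lipoxygenases Alox8, Alox12b, Aloxe3 and Alox12e did not exceed 0.165 FPKM in any library.

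Beside the member synthetases, 5 of the 9 other acyl-CoA synthetase genes were tested and 0 passed (2 at an unadjusted p below 0.05, both lower). Acsbg2, the bubblegum synthetase of testis, was the second most abundant of the listed synthetases after Acsl1, with 108, 118 and 221 FPKM in Sal_CP, against 100.2, 148 and 74.6 FPKM in CP. Slc27a4, a fatty acid transport protein with synthetase activity, averaged 2.25 ± 1.22 FPKM in Sal_CP, against 4.54 ± 0.958 FPKM in CP (limma adjusted p = 0.429), and its relative Slc27a2 averaged 2.77 ± 1.08 FPKM in Sal_CP, against 5.53 ± 1.72 FPKM in CP. Among other lysophospholipid acyltransferases, 11 of 14 were tested and 0 passed (1 at an unadjusted p below 0.05, Mboat1), with a median change of -0.04. Mboat1 averaged 3.35 ± 1.64 FPKM in Sal_CP, against 6.93 ± 0.542 FPKM in CP (limma adjusted p = 0.370), and Agpat2, which acylates lysophosphatidate, averaged 21.7 ± 7.47 FPKM in Sal_CP, against 15.7 ± 4.72 FPKM in CP.

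Genes that desaturate and elongate fatty acids had a median change of -0.50, with 12 of 13 tested genes below 0, as 60.5% of all tested genes were. Of the 13, 0 passed the test and 4 had an unadjusted p below 0.05. For 6, all lower, the groups did not overlap, as held in that direction for 10% of all tested genes. Fads1, the Δ5-desaturase that completes arachidonate, had 5.4, 4.31 and 3.07 FPKM in Sal_CP, against 11.6, 6.34 and 9.43 FPKM in CP. Fads2, the Δ6-desaturase at the start of the same route, had 18.8, 15.5 and 11.1 FPKM in Sal_CP, against 29.8, 25.1 and 29.4 FPKM in CP. Neither gene's groups overlapped, and their limma adjusted p was 0.370 and 0.421. In the same Sal_CP libraries 7 of the 8 epithelial genes were lower without overlap. So was the epididymal sum, nearly all of it Crisp1. The part of either in these values was not tested.

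**Figure D5:**
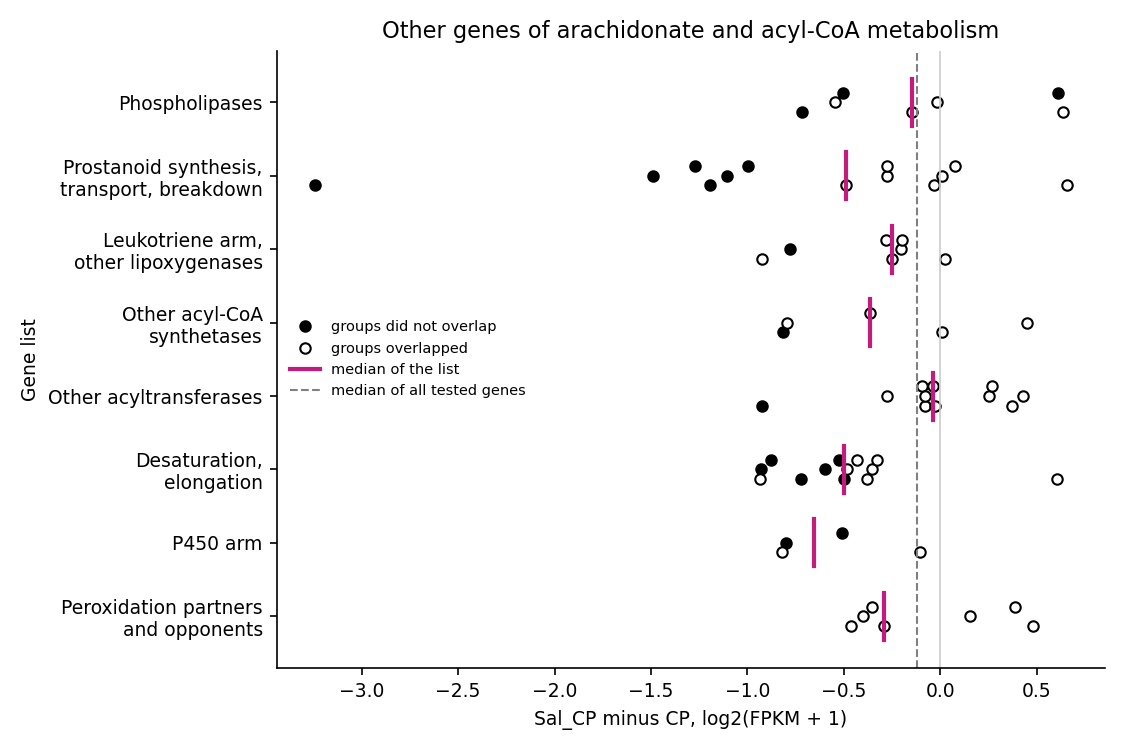
Change on the log2(FPKM + 1) scale (Sal_CP minus CP) of each tested gene in 8 lists, filled where the groups did not overlap, with the list median and a dashed line at -0.12, the median of all tested genes. Akr1b7, at -3.24, is the leftmost point, and the prostanoid list has a median of -0.49.

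The genes whose pattern over the 6 libraries was most like that of Ptgs2, by Pearson's r of log2(FPKM + 1), were Fads3 (r = 0.997), a desaturase of the list above, Rab44 (0.997), a RAB family GTPase, and Parp9 (0.997), an interferon-induced ADP-ribosyltransferase. They are the highest among the tested genes, and 554 named genes had an r above 0.95 with Ptgs2, so the value describes these libraries and carries no test. For Acsl4 they were Zfand6 (0.995), Afg3l2 (0.995) and Mlh3 (0.995), with 175 named genes above 0.95. For Acsl6 they were Stag3 (0.998), a meiotic cohesin subunit, Slc26a8 (0.997), a sperm anion transporter, and Cacna1h (0.996), a T-type calcium channel, with 155 above 0.95.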

How the data were processed

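RNA-seq of 6 mouse libraries was grouped by library title into 3 Sal_CP and 3 CP. Values are FPKM computed by the authors and deposited for 36842 genes. Per the submitters' processing notes the genome was GRCm38. For aligner, quantifier and statistical test the sources used here name nothing. Second strands were degraded before amplification, per the labels' protocols; whether counting used strand is not stated. The deposited fold (ratio) and its log2 compare mean FPKM of the groups, and the deposited p-value and q-value come from a test that is not given. Low values fell on whole reads in at most 36.6% of cases (tolerance 5%), so depth is unknown and intervals that need counts are not given.

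After adding 1 and taking log2, limma 3.58.1 in R 4.3.3 compared groups over genes averaging 1 FPKM or more, with a trended prior (4 residual and 7.76 prior degrees of freedom), adjusting over all 12241 genes at a threshold of 0.05. Single genes also had two-sided exact permutation tests over 20 assignments. The script was tested on simulated data. The members, gene lists and markers were chosen with earlier results of these data known. Named were all members, called genes or else the 2 of smallest p per list, and the 3 genes most like Ptgs2, Acsl4 and Acsl6 (no predicted or Rik genes); Ptgds, Hpgds, Ptger3, Pla2g6, Alox5ap, the minor lipoxygenases, Acsbg2 and Cyp4a12a were added after their values were seen. IDs matched GENCODE M21 in 99.7% of cases. Alternatives changed the pseudocount, filter, scaling, variance model, block and libraries. Figures were drawn with matplotlib 3.10.9.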

Additional observations from a re-analysis of the deposited data

How the results depend on the processing

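The members called stayed at 0 at every setting but the replicate block, which called 2. The count over all genes (9) was 0 with no filter and 0 after median of ratios scaling, and ranged from 0 to 13 with each library left out. Leaving out Sal_CP replicate 1 gave 0 and leaving out Sal_CP replicate 2 gave 1. Without Sal_CP replicate 1, 4472 of 12067 genes had an unadjusted limma p below 0.05, so a low p in that fit was not specific to single genes. The pathway lists' count (1) was 0 with no filter and 0 after median of ratios scaling, and 0 to 1 with each library left out. Ptgs1, Ptgs2, Alox15, Acsl1 and Acsl4 kept their sign at all 13 alternatives and Alox5 at the 12 that gave it a value (below the filter without CP replicate 1). Alox12 had 0.0065 after median of ratios scaling and -0.50 to 0.037 with each library left out, Acsl3 had 0.090 and -0.24 to 0.20, and Lpcat3 0.13 and -0.17 to 0.071. The difference of Acsl6 was 1.19 with a pseudocount of 0.1 and 0.31 to 0.73 with each library left out. The causes were not tested.

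With the replicate number as a block, Ptgs2 (-1.91, adjusted p = 0.000222 in limma) and Alox15 (-1.40, 0.000392) passed, as did 280 genes in all and 5 of the pathway lists. The block leaves fewer residual degrees of freedom than the 4 of the main fit, so these p-values rest more on the prior. Same-numbered libraries deviated from their group means with correlations of 0.20, -0.12 and -0.06. Sal_CP replicate 1 correlated best with CP replicate 1, and Sal_CP replicates 2 and 3 correlated best with another number. The labels do not say that shared numbers pair libraries, and so few correlations cannot decide it.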

Other observations

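The third route of arachidonate metabolism, through cytochrome P450, was represented by few genes. Of 13 listed genes, 4 averaged 1 FPKM or more and were tested and 0 passed limma over all genes (2 at an unadjusted p below 0.05, both lower). Ephx1, the microsomal epoxide hydrolase, averaged 11.5 ± 3.81 FPKM in Sal_CP, against 20.5 ± 4.9 FPKM in CP (SD, n = 3 each, limma adjusted p = 0.444). Ephx2, the soluble form that hydrolyses fatty acid epoxides, averaged 6.41 ± 3.39 FPKM in Sal_CP, against 11.2 ± 1.89 FPKM in CP. The fatty acid ω-hydroxylase Cyp4a12a had 9.32, 11.7 and 7.4 FPKM in Sal_CP, against 13.4, 7.39 and 10.3 FPKM in CP.

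Partners and opponents of lipid peroxidation did not pass the test either, with 0 of 7 tested (0 at an unadjusted p below 0.05). Pebp1, a scaffold protein that binds 15-lipoxygenase, averaged 4679 ± 859 FPKM in Sal_CP, against 3372 ± 788 FPKM in CP. Por, the P450 reductase that can feed lipid peroxidation, averaged 6.1 ± 3.08 FPKM in Sal_CP, against 8.28 ± 0.974 FPKM in CP (limma adjusted p = 0.531).

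Gm45244, a transcript on the strand opposite Acsl1, was singled out after its values were seen. It lies at 46471391 to 46473590 on chromosome 8 within Acsl1, and 1039 of its 2200 bases are shared with Acsl1 exons. It had 0.224, 0.237 and 191 FPKM in Sal_CP, against 0.0659, 0.0898 and 0.211 FPKM in CP. Its single high value is in Sal_CP replicate 3, where Acsl1 itself was highest at 585 FPKM. Whether the counting used strand is not stated, so reads of the pair cannot be told apart.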
